A study of Homo sapiens with 10 samples.

Results

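HSD11B1, the gene of the enzyme that makes active cortisol from inactive cortisone, had almost no reads in both untreated MCF10A libraries. Per kilobase of exon its mean in G12V cells ranked 3 among the 9 genes described here. Scaled for library size alone, its mean there was below those of FKBP5, DUSP1, TSC22D3, H6PD, PER1 and NR3C1. Parental MCF10A cells given DMSO in another experiment had 312 to 424 reads of HSD11B1 per library, against 1678 and 3223 in G12V cells. FKBP5 and PER1, well known targets of the glucocorticoid receptor, had overlapping levels in untreated MCF10A and G12V cells. TSC22D3, ZBTB16 and DUSP1 overlapped too, with wide spread between libraries of the same cells. Between libraries of the same replicate number TSC22D3 and ZBTB16 were lower and DUSP1 was higher in G12V cells. Of other genes that glucocorticoids induce, 8 of 35 tested were lower and 1 higher in G12V cells, beside 5.95% and 5.01% of all genes tested. The count depended on the tool: by DESeq2 9 were lower and 5 higher, beside 1196 and 1111 of all 14376 genes tested. The genes described are 9 genes of glucocorticoid activation and response, chosen by symbol out of 26256 genes in the table of the untreated cells and 55736 genes in the table of the Nutlin-3a experiment. They were chosen with the high HSD11B1 level of G12V cells already known, so their values in that comparison are a description without a test. All 9 were found in both tables, and all 9 passed the filter on low counts in both.

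Glucocorticoids are steroid hormones that enter the cell and bind the glucocorticoid receptor, which chaperones hold ready in the cytoplasm and which then moves to the nucleus to raise some genes and to restrain others, many of them inflammatory. How much active hormone a cell sees is set locally by a pair of enzymes with opposite direction, HSD11B1, which regenerates cortisol, and HSD11B2, which inactivates it. HSD11B1 is best known from liver and fat, and it takes its reducing power from NADPH that H6PD makes inside the endoplasmic reticulum.

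MCF10A is a non-transformed human mammary epithelial cell line, and G12V cells are MCF10A cells transduced by lentivirus with the G12V mutant of the HRas oncogene, together with a GFP vector, and selected with hygromycin (the labels write H-RAS Gv12). RNA of 2 untreated MCF10A and 2 untreated G12V cultures was sequenced, and in another experiment parental MCF10A cells received 10 µM Nutlin-3a, which releases p53 from MDM2, or the vehicle DMSO for 4 h, with 3 libraries each. The medium of all 4 groups contained 500 ng/ml hydrocortisone, which is cortisol, so active hormone was supplied to every culture, controls included. The parental MCF10A cells are not described as carrying an empty vector or as selected.

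Total counts were 21538593 to 23683975 per library in the untreated cells and 15453226 to 17378734 in the Nutlin-3a experiment. Levels are given in CPM, read counts scaled to a common library size with TMM factors, where 1 read is worth 0.0428 to 0.0658 CPM. HRAS, which checks the G12V label, went from 69.3 ± 4.77 to 573 ± 82.0 CPM (SD, n = 2 each), and MDM2, a p53 target that checks the Nutlin-3a label, was 113 ± 10.3 CPM with DMSO and 656 ± 153 CPM with Nutlin-3a (SD, n = 3 each). Of 9 epithelial markers 6 were lower in G12V cells (CDH1, EPCAM, KRT5, KRT14, KRT17 and TP63), and their summed level was 8976 to 12695 CPM in MCF10A and 1722 to 2568 CPM in G12V libraries. Among markers of other cells the leukocyte gene CD68 and the fibroblast gene LUM were higher, each as 1 gene of its list. The leukocyte list summed to 31.997 to 50.7 CPM in MCF10A and 60.6 to 114 CPM in G12V libraries, the fibroblast list to 37.5 to 64.9 and 53.4 to 60.1 CPM, and the hepatocyte and adipocyte list to 0.727 to 0.749 and 1.03 to 1.34 CPM. COL3A1, TTR and FABP4 had 0 reads in all 4 of these libraries, and PTPRC, CD3E, ALB, COL1A2 and THY1 had at most 1. The part of these markers in the values of the 9 genes was not tested.

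HSD11B1 lies on the plus strand of chromosome 1 from 209859525 to 209908295 (hg19) in the table of the untreated cells. The 2 MCF10A libraries held 12 and 17 reads of it, the 2 G12V libraries 1678 and 3223. In CPM these were 0.545 and 0.749 in MCF10A against 71.7 and 143.8 in G12V cells. Every G12V library was far above every MCF10A library, and the lowest G12V value was 95.8 times the highest MCF10A value. The means were 0.647 and 108 CPM, a 167-fold higher level in G12V cells, with a fitted log2 fold change of 7.37 (SE 0.49) that was 6.78 without G12V replicate 2.

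The annotation gives HSD11B1 a distal and a proximal group of transcript starts, and the deposited counts are per gene, so the level cannot be divided between them. The start of the row in the table is the distal one, and the start of the canonical transcript lies 18.7 kb downstream at position 209878191. The 250 bases before each start are printed because they are the candidate promoters of the gene that differed most among the 9, with capitals at the match to the C/EBP letters, since C/EBP proteins are known regulators of the gene.
HSD11B1 before the distal start, chr1:209859275-209859524, plus strand, GRCh37: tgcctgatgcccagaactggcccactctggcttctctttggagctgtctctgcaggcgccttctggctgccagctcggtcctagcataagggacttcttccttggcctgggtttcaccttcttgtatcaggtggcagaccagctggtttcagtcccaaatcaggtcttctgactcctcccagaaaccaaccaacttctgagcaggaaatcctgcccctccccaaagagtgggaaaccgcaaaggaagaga
HSD11B1 before the canonical start, chr1:209877941-209878190, plus strand, GRCh37: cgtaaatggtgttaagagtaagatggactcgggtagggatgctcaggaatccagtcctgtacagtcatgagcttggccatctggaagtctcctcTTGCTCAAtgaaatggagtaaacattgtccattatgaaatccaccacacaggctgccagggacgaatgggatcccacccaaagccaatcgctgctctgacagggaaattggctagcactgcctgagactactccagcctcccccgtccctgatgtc
Letters searched on both strands of the window from 250 bases before to 50 bases after each start were the core of the glucocorticoid response element (AGAACA), its palindrome of that core, 3 free bases and the reverse complement of the core, the AP-1 site (TGANTCA) and a C/EBP site (TTGCNNAA). The distal window held none of them. The canonical window held 1 C/EBP match, beginning at position -156 from the start, and none of the other letters. Of 35116 RefSeq promoters of the same length (GRCh38.p14), 10.5% held the C/EBP letters, 14.8% the glucocorticoid core, 7.71% the AP-1 letters and 0.0028% the full palindrome. Promoters of 7 of the 9 genes were in that table, 17 promoters in all, and the glucocorticoid core was in 2 of them, 1 of H6PD and 1 of FKBP5, the palindrome in 0.

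**Figure D1:**
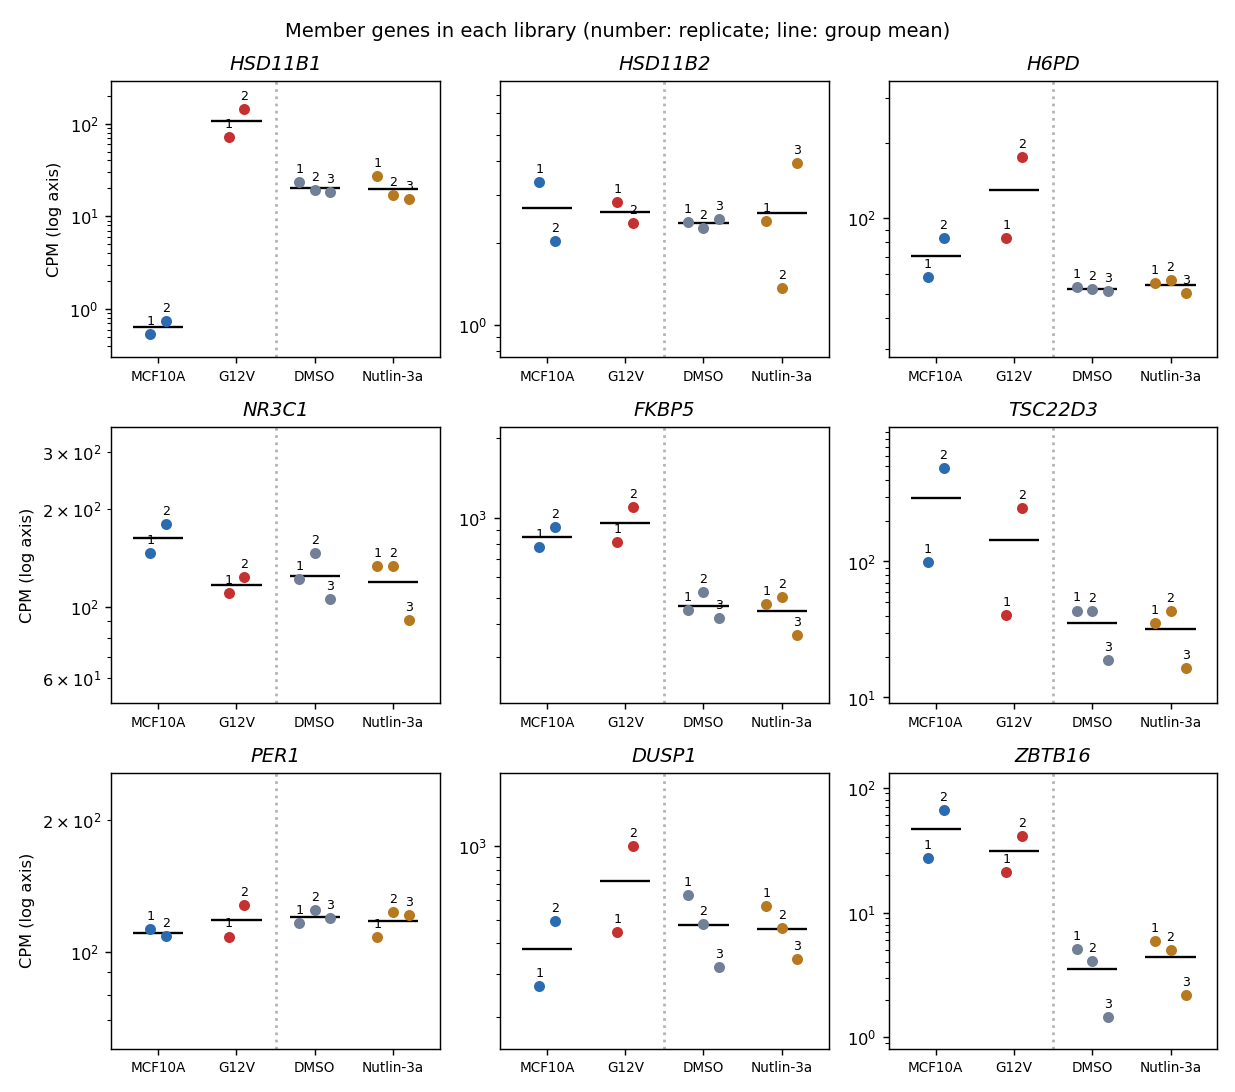
CPM of the 9 genes in each library on a log axis whose range differs between panels, with the replicate number beside each point and a line at the group mean; the dotted line separates the 2 tables, which were normalized separately. HSD11B1 was below 1 CPM in both MCF10A libraries, above 70 CPM in both G12V libraries and between 15.4 and 26.9 CPM in the libraries of the Nutlin-3a experiment, whereas PER1 stayed between 108 and 128.5 CPM in all of them.

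The opposing enzyme did not share this difference. HSD11B2, on chromosome 16 from 67465036 to 67471454, had 3.36 and 2.03 CPM in MCF10A and 2.82 and 2.36 CPM in G12V cells. Both G12V values lay between the MCF10A values, and the log2 fold change was -0.05 (SE 0.40). H6PD, the enzyme that supplies NADPH to HSD11B1, had 58.2 and 83.0 CPM in MCF10A and 83.7 and 175.8 CPM in G12V cells. Its G12V replicate 1 was only 1.01 times MCF10A replicate 2, and the log2 fold change of 0.88 (SE 0.38) moved between 0.24 and 1.31 as each library was left out. In reads per kilobase of the annotated exons of the canonical transcript, HSD11B1 went from the lowest place among the 9 genes in MCF10A (0.468 ± 0.104 CPM per kb) to the third place in G12V cells (77.9 ± 36.8 CPM per kb), behind DUSP1 and FKBP5 (SD, n = 2 each). TSC22D3 came next at 63.4 ± 64.6 CPM per kb (SD, n = 2). In G12V replicate 2 TSC22D3 was above HSD11B1, at 109.1 against 103.9 CPM per kb. HSD11B2 was at 1.42 ± 0.499 and 1.37 ± 0.171 CPM per kb on the same scale, so its mean level exceeded that of HSD11B1 in MCF10A but not in G12V cells.

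NR3C1, the gene of the glucocorticoid receptor, lies on chromosome 5 from 142657496 to 142783254 and had 146 and 180 CPM in MCF10A and 110 and 123 CPM in G12V cells. The G12V values were both below the MCF10A values. The log2 fold change was -0.48 (SE 0.20), and the lowest MCF10A value was 1.19 times the highest G12V value.

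FKBP5, a receptor co-chaperone and a widely used reporter of glucocorticoid action, had 776 and 922 CPM in MCF10A and 809 and 1097 CPM in G12V cells, and the groups overlapped (log2 fold change 0.17, SE 0.27). PER1, a clock gene that glucocorticoids induce, had 113 and 109 CPM in MCF10A and 109 and 128 CPM in G12V cells, again with overlap (log2 fold change 0.10, SE 0.18). For these 2 targets the mean of G12V cells was 1.12 and 1.07 times that of MCF10A.

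The other 3 targets differed widely between libraries of the same cells. TSC22D3, which encodes the anti-inflammatory protein GILZ, had 99.8 and 489 CPM in MCF10A and 40.3 and 248 CPM in G12V cells, and replicate 2 was 4.90 times replicate 1 in MCF10A and 6.15 times in G12V cells. ZBTB16, a transcription factor that glucocorticoids induce strongly in many tissues, had 27.5 and 66.0 CPM in MCF10A and 21.1 and 40.7 CPM in G12V cells. DUSP1, a phosphatase that switches off MAP kinases and answers to glucocorticoids as well as to growth signals, had 266 and 494 CPM in MCF10A and 445 and 999 CPM in G12V cells. Within each cell type replicate 2 had the higher value of all 3 genes, and the groups overlapped for each. The log2 fold changes were -1.03 (SE 0.98) for TSC22D3, -0.60 (SE 0.49) for ZBTB16 and 0.92 (SE 0.47) for DUSP1, and as each library was left out they ranged from -2.87 to 0.53, from -1.15 to 0.17 and from 0.22 to 1.44. In a fit that holds the replicate number as a block the log2 fold changes were -1.14 (SE 0.14), -0.54 (SE 0.16) and 0.88 (SE 0.14). The titles of these libraries share only the number, so whether they are pairs is not known.

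Over the 9 genes, 5 had a positive and 4 a negative log2 fold change, with a median of 0.10 beside 0.00 over all 14376 genes tested. The groups did not overlap for 3 of them, HSD11B1, H6PD and NR3C1, beside 54.8% of all genes tested.

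**Figure D2:**
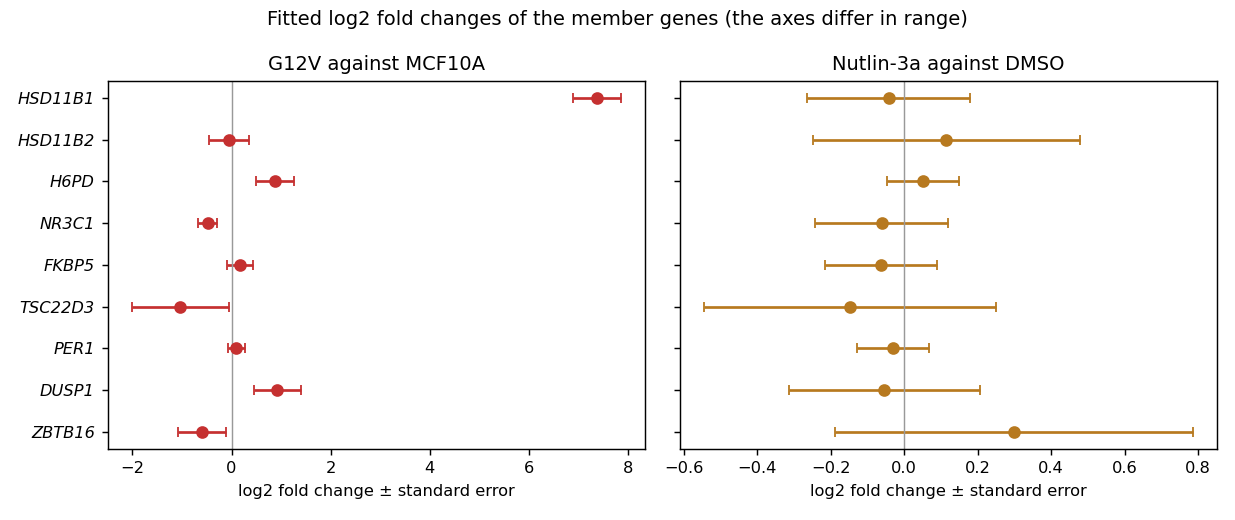
Fitted log2 fold change of each gene with its standard error as bars, for G12V against MCF10A on the left and Nutlin-3a against DMSO on the right, on axes of different range. HSD11B1 stood at 7.37 on the left, where the other 8 lay between -1.03 and 0.92, and all 9 lay between -0.15 and 0.30 on the right.

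To see whether the wider response differed between the cells, genes known to be induced or repressed by glucocorticoids, and genes that serve the receptor or the hormone, were read from lists by function that left out the 9 genes. A gene is called where its adjusted p in edgeR's quasi-likelihood fit was under 0.05 and its log2 fold change was beyond 0.5 in size, which held for 5.01% of all tested genes in the higher and 5.95% in the lower direction in G12V cells, 11.0% in all. The levels of IL6 and CXCL8 in these libraries were known when the lists were written. Both are in the repressed list, and CXCL8 holds its median log2 fold change of 4.06. Their own calls were thus known in advance and are no evidence for the list, and no count was made without them.

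Of 37 genes known to be induced by glucocorticoids 35 were tested, and 8 of them were lower and 1 higher in G12V cells, with a median log2 fold change of -0.24. SGK1, a kinase that promotes sodium uptake and a classical receptor target, had 77.9 and 86.5 CPM in MCF10A and 17.7 and 15.5 CPM in G12V cells (log2 fold change -2.30, SE 0.20, adjusted p = 0.00281). SCNN1A, a subunit of the epithelial sodium channel, fell from 434 ± 53.2 to 215 ± 1.31 CPM, and TFCP2L1, an epithelial transcription factor, from 258 ± 6.18 to 105 ± 13.1 CPM (SD, n = 2 each). GLUL, the enzyme glutamine synthetase, had 985 and 3972 CPM in MCF10A and 157 and 249 CPM in G12V cells, and KLF6, a transcription factor, 260 and 396 against 95.1 and 132 CPM. RGS2, which dampens G protein signals, had 34.2 and 42.6 against 16.9 and 20.6 CPM, and KLF15 and LCN2, both below 10 CPM on average, were the others called lower. TNFAIP3, an inhibitor of NF-kB that glucocorticoids and inflammatory signals both induce, was the 1 gene called higher, at 22.3 ± 2.39 and 80.8 ± 10.2 CPM (SD, n = 2 each). The other 26 tested genes of the list, with TXNIP, BCL6, CEBPD and MT2A among them, were not called.

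The genes known to be repressed by glucocorticoids went the other way. Of 26 listed 17 were tested, and 12 were higher and 1 lower in G12V cells, with a median log2 fold change of 4.06. The listed genes summed to 223 to 274 CPM in untreated MCF10A and 2675 to 2785 CPM in G12V libraries. In parental MCF10A cells with DMSO, from the other experiment, they summed to 1132 to 3089 CPM, a range that takes in the G12V sums. The 2 experiments were normalized separately, and no test was made between them. CSF3, a cytokine that drives neutrophil production, had 18.6 and 11.6 CPM in MCF10A and 570 and 442 CPM in G12V cells (log2 fold change 5.07, SE 0.34, adjusted p = 0.00127). IL1B, a central inflammatory cytokine, had 10.4 and 3.30 CPM in MCF10A and 285 and 498 CPM in G12V cells, and the chemokine CXCL1 37.2 and 20.1 against 1065 and 391 CPM. IL6, with 0 and 1 reads in MCF10A, reached 38.4 ± 0.274 CPM in G12V cells (SD, n = 2). CXCL3 reached 28.9 ± 10.6 CPM from 0.494 ± 0.201 CPM (SD, n = 2 each), and reads of the similar genes CXCL1, CXCL2 and CXCL3 could have been split among them. CCL2, CCL20, CXCL2, CXCL8, ICAM1, IL1A and LIF were the others called higher, of which CCL2 had at most 1 read in each MCF10A library. PLAU, the urokinase protease, was the 1 gene called lower, from 87.7 ± 10.8 to 32.8 ± 10.6 CPM (SD, n = 2 each). IL6 and CCL2, both among the 12, passed the filter only through their G12V values, with log2 fold changes of 10.4 and 8.23. CXCL3, also among the 12 and low in MCF10A, passed only with its G12V values too, with a log2 fold change of 5.86. With IL6 and CCL2 set at 3 reads in MCF10A the median was again 4.06. Both stayed above the median there, so this could not show their part in it. No count or median was taken without IL6, CCL2 and CXCL3.

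All of these calls in G12V cells, and those given below, were lost without MCF10A replicate 1, where edgeR called 0 of the genes tested in either direction, with 2830 at an unadjusted p under 0.05. Left-out libraries also moved the number of induced genes called higher, to 5 without MCF10A replicate 2, 4 without G12V replicate 1 and 2 without G12V replicate 2, and the number called lower to 5 without MCF10A replicate 2. RGS2 and KLF15 were also not called without MCF10A replicate 2 or with no filter, RGS2 without G12V replicate 1, SCNN1A without any 1 of the 4 libraries, and LCN2 without G12V replicate 2. The log2 fold change of GLUL was -3.61, and -2.28 without MCF10A replicate 2 and -4.27 without MCF10A replicate 1, that of IL1B 5.84, and 6.90 without MCF10A replicate 1 and 5.24 without MCF10A replicate 2, and that of CXCL1 4.67, and 3.77 without G12V replicate 1. Both lists moved together with the fall of the epithelial markers given above, and the part of cell type in them was not tested.

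**Figure D3:**
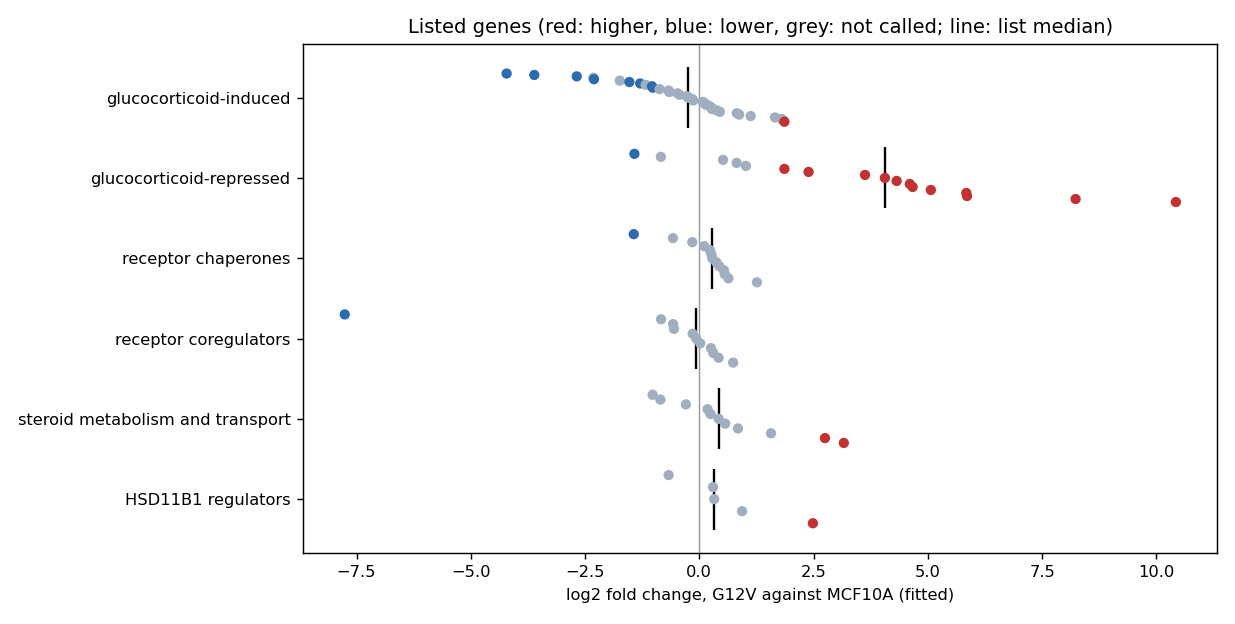
Fitted log2 fold change, G12V against MCF10A, of each tested gene in 6 lists by function, with genes called higher in red, called lower in blue and not called in grey, and a black line at the list median. The median was -0.24 for the induced and 4.06 for the repressed genes, and the fitted values of IL6, CCL2 and PPARGC1A depend on the prior count because 1 group had at most 1 read per library.

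Of the machinery around the receptor edgeR called 1 of 13 chaperones and 1 of 11 coregulators beside 11.0% of all genes tested. Of the chaperones BAG1, a co-chaperone that restrains it, was the 1 gene called and lower, at 123 and 141 CPM in MCF10A and 64.1 and 33.4 CPM in G12V cells, while HSP90AA1, the chaperone that holds the receptor in its hormone-binding form, had 2010 and 1229 against 3779 and 3982 CPM and was not called (log2 fold change 1.26, SE 0.35, adjusted p = 0.0745). The BAG1 call was also lost with upper-quartile factors and with no filter. Of the coregulators PPARGC1A was called, with 53 and 428 reads in MCF10A and 1 read in each G12V library. Of the related steroid receptors NR3C2, which also binds cortisol, had 39 to 42 reads in MCF10A and 100 to 175 in G12V cells and was not called, and PGR had 0 reads throughout.

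Of 25 genes of steroid metabolism and transport 11 were tested, and AKR1C1 and AKR1C2 were higher in G12V cells. AKR1C1, which inactivates progesterone, had 17.5 and 51.2 CPM in MCF10A and 157 and 459 CPM in G12V cells, and AKR1C2, which acts on androgens, had 55.5 and 111 against 365 and 755 CPM. Their sequences are nearly identical, so reads could have been split between them. The log2 fold change of AKR1C1 was 3.16, and 2.19 without G12V replicate 2 and 4.13 without MCF10A replicate 2, that of AKR1C2 2.75, and 2.13 and 3.33 without the same libraries, and 5 genes of the list were called without G12V replicate 1. SLC37A4, which carries the substrate of H6PD into the endoplasmic reticulum, had 29.3 CPM in both MCF10A libraries and 32.4 and 33.6 CPM in G12V cells. Of 5 known regulators of HSD11B1 the nuclear receptor PPARG was called higher, at 6.23 and 7.88 CPM in MCF10A and 30.9 and 48.2 CPM in G12V cells, and CEBPB had 125 and 176 against 211 and 365 CPM without being called (log2 fold change 0.93, SE 0.32, adjusted p = 0.134).

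In the untreated libraries the genes beside HSD11B1 did not share its level. TRAF3IP3, an immune cell adaptor whose row begins 21.1 kb beyond HSD11B1, had 14 to 21 reads in MCF10A and 0 in both G12V libraries, at least 5.99-fold lower against 3 reads per library. C1orf74 was also lower (log2 fold change -1.72, SE 0.25). LAMB3, a laminin chain on the other side, had 1137 ± 104 and 2286 ± 1524 CPM (SD, n = 2 each) and was not called, nor was DIEXF. CAMK1G, MIR4260 and G0S2 had at most 9 reads in any untreated library. Thus HSD11B1 was high in G12V cells between neighbours that were lower, not called or almost without reads.

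**Figure D4:**
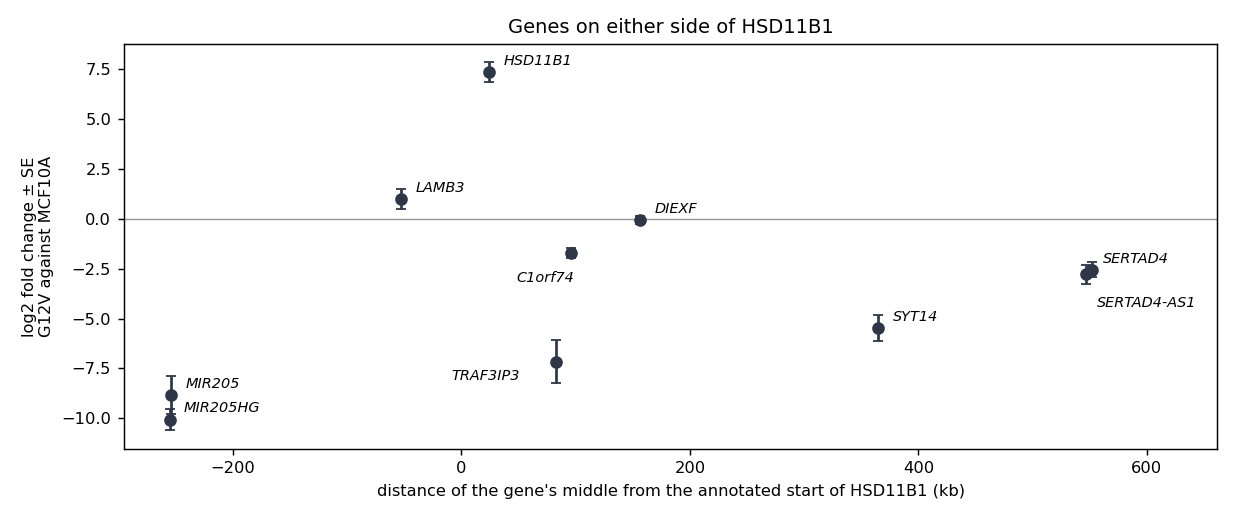
Fitted log2 fold change with its standard error as bars, G12V against MCF10A, of HSD11B1 and tested genes around it, by the distance in kb of the middle of each gene from the annotated start of HSD11B1. HSD11B1 stood at 7.37, C1orf74 at -1.72 and DIEXF at -0.06, and the value of TRAF3IP3 depends on the prior count because both G12V libraries had 0 reads.

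The genes whose levels over the 4 untreated libraries were nearest to those of HSD11B1, by the Euclidean distance of log2(CPM + 1), were EPB41L3, FAM129A, MEFV, GRAMD1B and CES1, with distances of 1.18, 1.26, 1.61, 1.97 and 2.01. EPB41L3, a membrane skeleton protein, had at most 1 read in each MCF10A library and 77.6 ± 32.9 CPM in G12V cells, and MEFV, which encodes the inflammasome protein pyrin, had 1.59 ± 0.257 and 55.6 ± 15.6 CPM (SD, n = 2 each). CES1, a carboxylesterase best known from liver, had 2.85 ± 0.791 and 65.7 ± 25.1 CPM (SD, n = 2 each).

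In the Nutlin-3a experiment, which asks how parental cells respond within hours to the release of p53, none of the 9 genes passed the test. With DMSO HSD11B1 had 23.5, 19.5 and 18.2 CPM, and with Nutlin-3a 26.9, 17.1 and 15.4 CPM. The treated values enclosed the untreated ones, with a log2 fold change of -0.04 and a standard error of 0.22, and edgeR gave an adjusted p = 1.00. The percentage of all 13529 tested genes that were called was 0.170%. By edgeR 0 of the 9 genes were called and 0 had an unadjusted p under 0.05, and DESeq2, edgeR's exact test and the fit that holds the replicate number as a block gave 0 and 0 as well. The smallest unadjusted p was that of ZBTB16, at 0.555 and, with the block, at 0.0927.

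HSD11B2 had 2.38, 2.27 and 2.45 CPM with DMSO and 2.40, 1.36 and 3.95 CPM with Nutlin-3a, and H6PD stayed between 50.3 and 56.8 CPM in all 6 libraries. NR3C1 was 124 ± 20.6 and 119 ± 24.8 CPM, FKBP5 466 ± 55.1 and 446 ± 73.8 CPM and PER1 120 ± 4.25 and 118 ± 8.21 CPM with DMSO and Nutlin-3a (SD, n = 3 each). All of these overlapped between the treatments. TSC22D3 had 43.6, 43.4 and 18.8 CPM with DMSO and 35.5, 43.5 and 16.4 CPM with Nutlin-3a, DUSP1 629, 480 and 319 against 569, 460 and 345 CPM, and ZBTB16 5.09, 4.11 and 1.46 against 5.91, 5.02 and 2.17 CPM. Replicate 3 was the lowest of both treatments for each of these 3 genes, and also for HSD11B1, H6PD, NR3C1 and FKBP5. Libraries of the same number deviated together in this experiment, although their titles share only the number, and the main fit does not use it. With the number as a block the standard error of the log2 fold change narrowed from 0.40 to 0.09 for TSC22D3 and from 0.49 to 0.17 for ZBTB16. That edgeR fit gave adjusted p = 0.571 and 0.539.

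Among the listed genes 0 of 32 tested induced and 0 of 17 tested repressed genes were called after Nutlin-3a, 2 and 0 of them at an unadjusted p under 0.05, also by DESeq2 and by edgeR's exact test. With the replicate number as a block 10 induced and 8 repressed genes had an unadjusted p under 0.05, beside 1584 (11.7%) of all genes tested. In that fit BCL6, a transcriptional repressor, was called higher (log2 fold change 0.86, SE 0.14, adjusted p = 0.00770), from 4.66 ± 1.63 to 8.43 ± 2.69 CPM (SD, n = 3 each). LIF, a cytokine and a known p53 target, was called higher with the block too (log2 fold change 0.66, SE 0.14, adjusted p = 0.0326), and it had 24.6, 105.5 and 34.0 CPM with DMSO and 48.2, 117 and 64.9 CPM with Nutlin-3a.

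Parental MCF10A cells appear in both experiments, and their HSD11B1 levels stand far apart. The order of the 4 groups was G12V at 108 ± 50.9 CPM (SD, n = 2), DMSO at 20.4 ± 2.74 CPM and Nutlin-3a at 19.8 ± 6.23 CPM (SD, n = 3 each), and untreated MCF10A at 0.647 ± 0.144 CPM (SD, n = 2). DMSO and Nutlin-3a, neighbours in that order, did not differ beyond their spread. The tables rest on different annotations and were normalized separately, so no test was made between them, and the agent DMSO, the experiment and the annotation cannot be told apart. The row of HSD11B1 runs from 209859509 to 209908295 in the second table, nearly the same span as in the first, and the antisense gene RP1-28O10.1, which that table lists across HSD11B1, had only 2 to 14 reads per library against 234 to 437 reads of HSD11B1. Whether the counting used strand is not given in the sources used here.

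Other genes stood apart between the parental groups as well. ZBTB16 was 46.8 ± 27.2 CPM in untreated MCF10A (SD, n = 2) and 3.55 ± 1.88 CPM with DMSO (SD, n = 3), TSC22D3 294 ± 275 and 35.3 ± 14.2 CPM, and FKBP5 849 ± 103 and 466 ± 55.1 CPM. SGK1 was 82.2 ± 6.02 and 24.5 ± 0.317 CPM, and IL1B 6.83 ± 4.99 and 537 ± 240 CPM. PER1, at 111 ± 2.81 and 120 ± 4.25 CPM, and HSD11B2, at 2.69 ± 0.946 and 2.37 ± 0.0907 CPM, were close. CDH1, the epithelial cadherin, was 219 ± 27.3 and 148 ± 63.6 CPM. Beside HSD11B1, TRAF3IP3 was 0.786 ± 0.239 and 16.4 ± 7.43 CPM, and LAMB3 1137 ± 104 and 3516 ± 1047 CPM. C1orf74 was 33.7 ± 6.41 and 16.9 ± 4.70 CPM, and DIEXF 102 ± 9.10 and 100 ± 12.2 CPM.

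The 9 genes also differed in how well libraries of a group resembled each other. PER1 was among the steadier ones, with a ratio of the highest to the lowest library of 1.04 in MCF10A, 1.18 in G12V, 1.07 with DMSO and 1.14 with Nutlin-3a, beside medians over the tested genes of 1.23, 1.25, 1.27 and 1.31. TSC22D3 was the most variable in the untreated table, with ratios of 4.90 and 6.15, above the 95th percentile of the tested genes (2.33 in MCF10A and 2.55 in G12V). ZBTB16 had ratios of 2.40 and 1.93 there and of 3.49 and 2.72 with DMSO and Nutlin-3a. HSD11B1 itself had 1.37 in MCF10A, from few reads, and 2.004 in G12V cells, beside a 90th percentile of 1.999, and 1.29 and 1.75 with DMSO and Nutlin-3a.

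**Figure D5:**
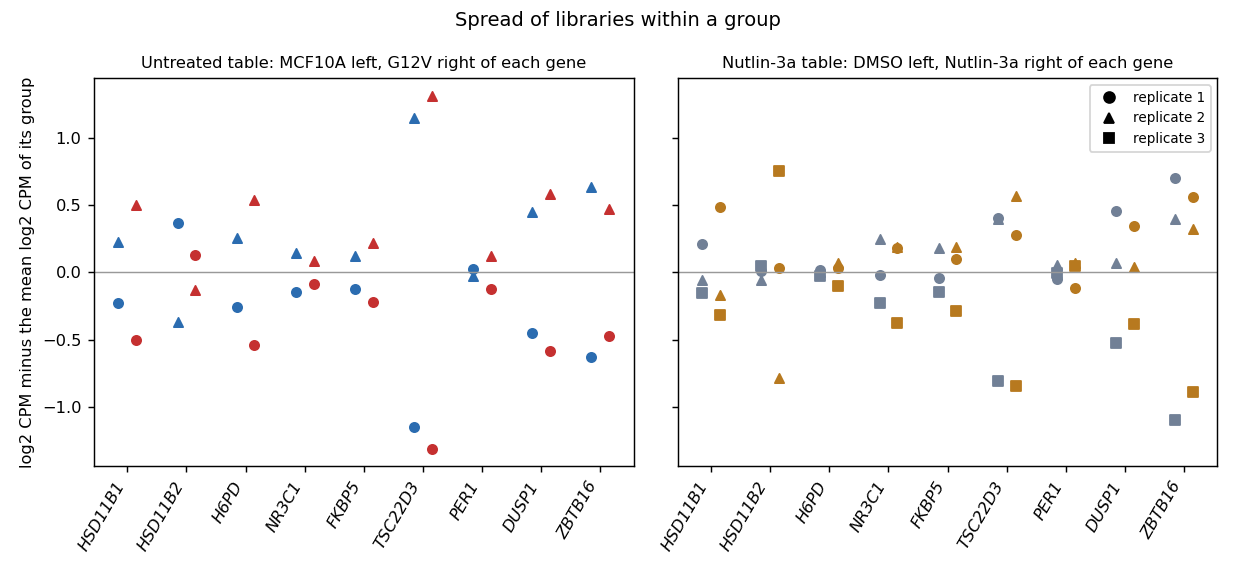
Deviation of each library from the mean log2 CPM of its group for the 9 genes, with MCF10A in blue and G12V in red on the left, DMSO in grey and Nutlin-3a in brown on the right, and the marker shape giving the replicate number. In the left panel replicate 2 was above replicate 1 in both cell types for HSD11B1, H6PD, NR3C1, FKBP5, TSC22D3, DUSP1 and ZBTB16, and in the right panel replicate 3 was the lowest for the same 7 genes in both groups.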

How the data were processed

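Poly(A) RNA libraries of 4 MCF10A and G12V samples and of 6 DMSO and Nutlin-3a samples were read. The authors aligned reads to hg19 with TopHat and counted them with HTSeq, and the deposited values are raw counts per gene in 2 tables on different annotations. The annotation, the strand setting and the treatment of overlapping genes are not given in the sources used here. The labels call the libraries biological replicas of 1 line, so p-values measure the spread between its cultures.

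Each table was fitted on its own with edgeR 4.0.16 in R 4.3.3 (limma 3.58.1), using filterByExpr, TMM, the quasi-likelihood F-test, Benjamini-Hochberg adjustment over all tested genes and a prior count of 0.125. Calls need an adjusted p under 0.05 and a log2 fold change beyond 0.5 in size. The standard error of a log2 fold change is its size divided by the square root of F. The 9 genes, the lists and the tests were chosen with earlier results of these data known. Named are the 9 genes; per list, the called genes of at least 10 CPM on average, up to the 5 largest rises and 5 largest falls, or any called gene where a list has fewer than 4; genes overlapping one of the 9 or within 100 kb of HSD11B1; the 5 nearest in level to HSD11B1; HRAS and MDM2. Other genes, named to complete a count or for a value without a call, were chosen after their values were seen. Some genes that this rule selects are not reported here. CXCL8 is listed as IL8 in the Nutlin-3a table. A level of 0 reads allows up to 3 reads per library, a bound for counting error alone, as reads carry no molecular identifiers.

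Libraries of the same number in the DMSO and Nutlin-3a groups deviated together (correlations of 0.62, 0.60 and 0.64, against -0.47 to -0.19 for other pairs). The numbers were therefore taken as pairs in the fit with the replicate block, while the main fit holds no pairs. The fits were tested on simulated counts. Alternatives included DESeq2 1.42.0, the exact test of edgeR, relative log expression and upper-quartile factors, no filter, the replicate block, a prior count of 2 and leaving out each library. Sequences were read from GRCh37, transcript starts from GENCODE and motif shares from RefSeq promoters, with Python 3.11.15, and figures were drawn in matplotlib 3.10.9 from tables made in pandas 2.3.3 and numpy 2.4.6.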

Additional observations from a re-analysis of the deposited data

How the results depend on the processing

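The high level of HSD11B1 in G12V cells kept its direction under all alternatives, with log2 fold changes of 7.19 to 7.37 across tools, factors and filters and of 6.78 to 7.78 as each library was left out. With 2 libraries per group the totals depended on the tool: in G12V cells 1111 genes were higher by DESeq2, 1230 by the exact test and 2071 with the replicate block, beside 720, and 1306 were lower by the exact test and 2087 with the block, beside 855. As each library was left out, 0 (without MCF10A replicate 1) to 1126 (without G12V replicate 1) were higher and 0 to 1003 lower. The deviations of untreated libraries of the same number had a correlation of 0.49, against -0.49 for other pairs. With 2 libraries per group these values can differ only in sign, so they cannot show whether the numbers are pairs. The titles of these libraries share only the number too. The libraries were not taken as pairs, so the block is only an alternative there.

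Of induced genes, 5 were higher by DESeq2 and by the exact test and 7 with the block, and 0 to 5 were higher and 0 to 9 lower with a library left out. Of repressed genes 0 to 13 were higher and 0 to 1 lower with a library left out. Chaperones called were 2 by DESeq2 and by the exact test, 6 with the block, 0 with upper-quartile factors and 0 with no filter, coregulators 3, 3 and 4 by DESeq2, exact test and block, and steroid genes 5, 5 and 7. With a library left out, 0 to 1 chaperones, 0 to 1 coregulators and 0 to 5 steroid genes were called.

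After Nutlin-3a 23 genes were called, 88 by DESeq2, 84 by the exact test, 99 with no filter, 165 with the block and 7 to 11 with a library left out. The block called 1 induced and 1 repressed gene, and changed no call among the 9 genes. The log2 fold changes of the 9 genes, none called, crossed 0 for 8 as libraries were left out: HSD11B1 -0.33 to 0.11, HSD11B2 -0.33 to 0.42, NR3C1 -0.17 to 0.10, FKBP5 -0.16 to 0.065, TSC22D3 -0.45 to 0.16, PER1 -0.069 to 0.025, DUSP1 -0.27 to 0.20 and ZBTB16 -0.072 to 0.66. The causes were not tested. At 12 and 17 reads in MCF10A, the fold of HSD11B1 is limited by counting in that group.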
